A study of Mus musculus with 54 samples.

Results

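Hdac3 to Hdac11 are the 9 mouse genes for the zinc-dependent histone deacetylases other than Hdac1 and Hdac2. HDAC1 and HDAC2 are the targets of Cmpd60, a benzamide-based compound described as a selective inhibitor of that pair, and the 9 others were examined because their transcripts could rise or fall to compensate when HDAC1 and HDAC2 are inhibited. They were chosen by gene symbol, with no measured value in the rule. All 9 were found among the 54232 Ensembl genes of each count file, and all 9 passed the filter on low counts in every comparison.

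Histone deacetylases remove acetyl groups from lysines, and lysine acetylation of histones generally goes with open chromatin and transcription. HDAC3 and HDAC8 belong with HDAC1 and HDAC2 to class I. HDAC3 is the catalytic subunit of the NCoR and SMRT corepressor complexes, and HDAC8 deacetylates SMC3, a subunit of the cohesin ring that holds chromatids and chromatin loops. HDAC4, HDAC5, HDAC7 and HDAC9 form class IIa, which have little catalytic activity of their own, bind MEF2 transcription factors and leave the nucleus when kinases of the CaM kinase, protein kinase D and SIK families phosphorylate them. In the heart, class IIa proteins are known as brakes on the growth programme of cardiomyocytes, and HDAC7 is known for its role in the endothelium. HDAC6 and HDAC10 form class IIb, of which the former is a cytoplasmic deacetylase of tubulin and of the chaperone HSP90, and the latter a deacetylase of acetylated polyamines. HDAC11 is the sole class IV member and acts mainly on fatty acyl groups of lysines.

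RNA of male BL6 mice aged about 20 months and of the brain of APPSWE-1349 mice and littermates aged about 6 to 7 months was sequenced in 54 libraries. All mice had 14 days of daily intraperitoneal injection, with Cmpd60 at 22.5 mg/kg or with the solvent of DMSO, PEG400 and saline alone, so that the vehicle mice were injected too. The aged mice gave 5 vehicle and 6 Cmpd60 kidneys, 6 vehicle and 6 Cmpd60 brains, and 6 vehicle and 5 Cmpd60 hearts. The APPSWE-1349 mice, on a BL6 background, carry a transgene for the 695-amino-acid form of the human amyloid precursor protein with the Swedish mutation, and after 1 library was set aside, called vehicle by its labels and Cmpd60 by the study's own table, they gave 5 vehicle and 4 Cmpd60 transgenic brains beside 5 vehicle and 5 Cmpd60 littermate brains. The age of the APPSWE-1349 cohort is that of the study's methods, since its labels carry the text of the aged mice. The labels do not say which part of the brain was taken, which cells express the transgene, or which kidney, brain and heart came from the same animal. In the kidney labels, the treatment field names the opposite group from the title and source name in all 11 libraries. The titles were followed, and every kidney difference given here would change sign if the treatment field were right.

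Between 23584609 and 57430113 reads per library fell on genes, with a median of 28114298, and a count of 0 in the smallest library allows up to 0.127 CPM, the number of counts per 1e6 counts on genes. The 6 neuronal markers summed to 5236 to 6977 CPM in the aged brains, against at most 1.62 CPM in the kidneys and 67.1 CPM in the hearts. The 7 tubule markers summed to 13398 to 16657 CPM in vehicle kidneys and 7797 to 16639 CPM in Cmpd60 kidneys, and the 6 cardiomyocyte markers to 43905 to 54078 CPM in the hearts. In the brains of the dementia model, 5 libraries had the fewest genes detected, 15044 to 16577, under a cut of 17000. They were transgenic vehicle replicates s140 and s146 (numbers as in titles), transgenic Cmpd60 replicate 141, littermate Cmpd60 replicate 152 and littermate vehicle replicate s155. The other libraries of this cohort ran from 18122 to 24821, and the aged brains from 24939 to 28017. Few genes detected was thus not confined to these 5. The variation between libraries that edgeR estimated, its common biological coefficient of variation, was 0.729 in the dementia model with all 19 libraries. In the aged brains it was 0.114. The differences in the dementia model are given with and without these 5 libraries. All of these are bulk tissue measurements, in which fewer cells of a type and less RNA per cell cannot be told apart.

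Transcripts of the targets were present in every library. Hdac1 stood at 21.9 to 24.9 CPM in aged vehicle brains, 16.95 to 25.3 CPM in vehicle hearts and 51.3 to 57.2 CPM in vehicle kidneys, and Hdac2 at 67.6 to 79.3, 42.8 to 52.1 and 46.001 to 60.2 CPM. The compound acts on the proteins, so these transcripts check no label. Neither target passed the test at an adjusted p below 0.05 in any treatment comparison. The smallest unadjusted p was that of Hdac1 in the kidney, with a log2 fold change of 0.20 ± 0.08 (SE, n = 6 against 5, edgeR adjusted p = 0.390).

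The level of each gene in the tissues was read from the vehicle mice first, since it sets how well a treatment effect could be measured. Per kilobase of exon, the 9 genes of the aged brain ran from Hdac11 at 61.8 ± 3.66 CPM per kb (SD, n = 6) down to Hdac8 at 3.20 ± 0.158. In between, Hdac5 stood at 23.6 ± 1.46, Hdac3 at 14.8 ± 0.984, Hdac4 at 8.78 ± 0.790, Hdac6 at 7.57 ± 0.459, Hdac7 at 5.30 ± 0.743, Hdac9 at 4.79 ± 0.180 and Hdac10 at 3.24 ± 0.324 CPM per kb. Libraries of Hdac4 and Hdac6, of Hdac6 and Hdac7, of Hdac7 and Hdac9, and of Hdac10 and Hdac8 overlapped, so those neighbours in the order were not separated by their spread. In the heart, the order was led by Hdac5 at 12.2 ± 0.502, Hdac3 at 9.88 ± 0.514 and Hdac7 at 8.82 ± 0.293 CPM per kb (SD, n = 6), and closed with Hdac8 at 0.788 ± 0.187. Libraries of Hdac3 and Hdac7 overlapped there. In the kidney, Hdac6 led with 14.5 ± 1.21 CPM per kb (SD, n = 5), followed by Hdac11 at 10.9 ± 0.510 and Hdac3 at 10.2 ± 0.351, whose libraries overlapped, and Hdac9 came last with 0.219 ± 0.0277. The class IIa genes were thus not at 1 level in any tissue, from 0.219 CPM per kb of Hdac9 to 7.78 CPM per kb of Hdac5 in the kidney. The vehicle brains of the dementia model gave the same first 5 genes, with Hdac11 at 59.1 ± 6.23 CPM per kb in littermates and 62.3 ± 8.69 in transgenic mice (SD, n = 5 each).

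**Figure D1:**
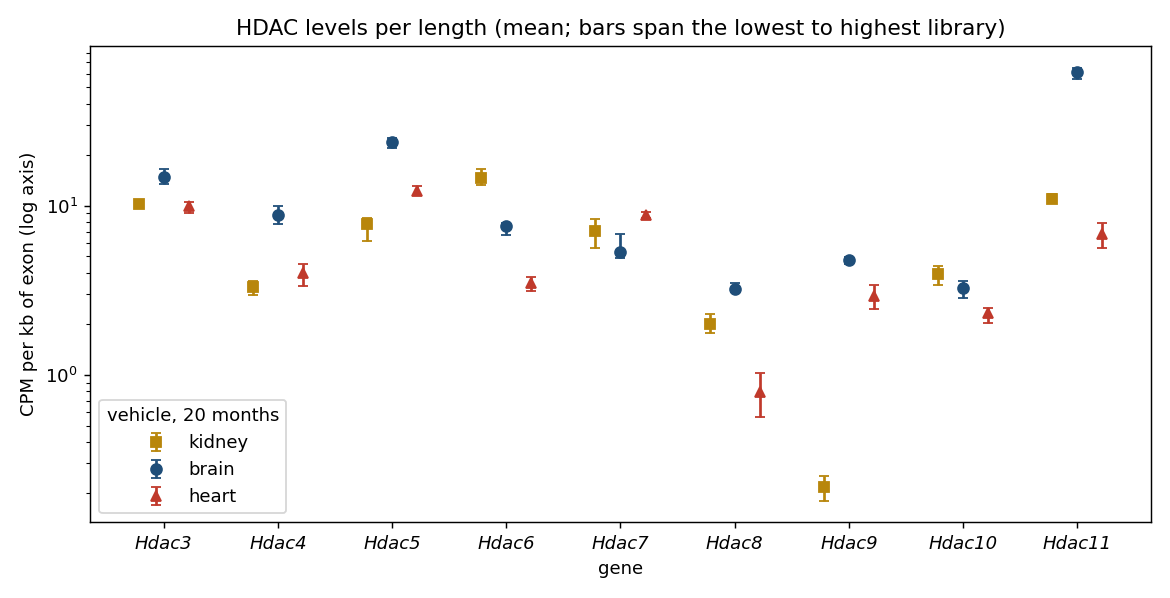
Level of each HDAC gene in CPM per kb of exon (log axis) in vehicle mice of about 20 months, with kidney (n = 5) as squares, brain (n = 6) as circles and heart (n = 6) as triangles. Points are means and bars span the lowest to the highest library. CPM are TMM-scaled within each tissue, so the figure gives the order of genes within a tissue. Tissues are compared in the text on a joint scale. Hdac11 in brain, at 61.8 CPM per kb, is the highest point, and Hdac9 in kidney, at 0.219, the lowest.

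Differences between tissues were then tested in a joint fit of the 34 aged libraries, each entered as a separate mouse. The paper's methods name fewer aged mice than there are libraries, so tissues shared animals, and this pairing was not modelled. All 9 genes passed an adjusted p of 0.05 between vehicle brain and kidney, 6 higher and 3 lower in brain, where 72.5% of all 27105 genes tested passed. All 9 also passed between heart and kidney, 5 higher and 4 lower in heart, against 56.7% of all genes, and 6 of 9 passed between brain and heart, 5 higher and 1 lower in brain, against 72.1%. Most expressed genes differ between these organs, so the counts do not set the HDAC genes apart.

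Hdac9, a class IIa gene, had the largest difference of the 9 between the kidney and the other organs. After TMM scaling across tissues, its vehicle level was 1.99 ± 0.256 CPM in kidney (SD, n = 5), 38.7 ± 1.73 in brain (n = 6) and 35.6 ± 5.35 in heart (n = 6). The kidney libraries ended at 2.30 CPM and the heart libraries began at 28.9 CPM, with no overlap. Brain exceeded kidney 19.4-fold, with a 95% interval of 14.7 to 25.6, and heart exceeded kidney 17.9-fold, with an interval of 13.6 to 23.6. Hdac11, of class IV, had the largest difference of the 9 between brain and heart. Its level was 199.8 ± 12.3 CPM in brain, 39.8 ± 1.84 in kidney and 32.8 ± 4.84 in heart on the same scale, and brain exceeded kidney 5.02-fold (interval 4.39 to 5.74) and heart 6.08-fold (5.35 to 6.91). The smaller difference of Hdac11 between heart and kidney, at -0.28 on the log2 scale, lost its call without heart vehicle replicate 64 (-0.21, adjusted p = 0.0606) or replicate 66 (-0.19, adjusted p = 0.0762).

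Hdac6, the tubulin deacetylase, was highest in kidney, where it reached 80.0 ± 6.66 CPM against 37.0 ± 2.06 in brain and 25.4 ± 2.40 in heart. The log2 difference from kidney was -1.11 ± 0.08 (SE) in brain and -1.65 ± 0.08 in heart. Hdac10, the other class IIb gene, was also highest in kidney, with 12.7 ± 1.22 CPM against 9.21 ± 0.907 in brain and 9.85 ± 0.766 in heart. Among the class IIa genes, Hdac4 and Hdac5 followed the order brain, heart, kidney, with 47.8 ± 4.39, 32.8 ± 4.26 and 20.1 ± 1.46 CPM of Hdac4 and 173.9 ± 10.7, 134.7 ± 7.21 and 64.6 ± 7.79 CPM of Hdac5. Hdac7 was highest in heart instead, with 61.3 ± 1.55 CPM against 36.9 ± 5.64 in kidney and 24.6 ± 3.28 in brain. Of the class I genes, Hdac8 was lowest in heart, at 4.78 ± 1.03 CPM against 13.005 ± 0.682 in brain and 9.18 ± 1.13 in kidney. Hdac3 varied least, with 50.0 ± 3.48 CPM in brain, 50.1 ± 3.31 in heart and 38.9 ± 1.29 in kidney.

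Some of these directions depended on how the tissues were put on 1 scale. The mean TMM factor was 1.06 in kidney, 1.18 in brain and 0.792 in heart, and scaling to plain library totals instead moved each comparison with heart. On that scale, Hdac3 was 0.60 higher on the log2 scale in brain than in heart (adjusted p = 5.29e-11, against -0.0013 with TMM, adjusted p = 0.999), Hdac9 was 0.72 higher (adjusted p = 2.93e-05, against 0.12 with TMM) and Hdac10 was 0.50 higher (adjusted p = 2.46e-05, against -0.10 with TMM). Between heart and kidney, Hdac3 went from 0.37 to -0.05 (adjusted p = 0.570). The tissue differences of the genes and pairs not named here kept their direction and their side of the threshold under both scalings.

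**Figure D2:**
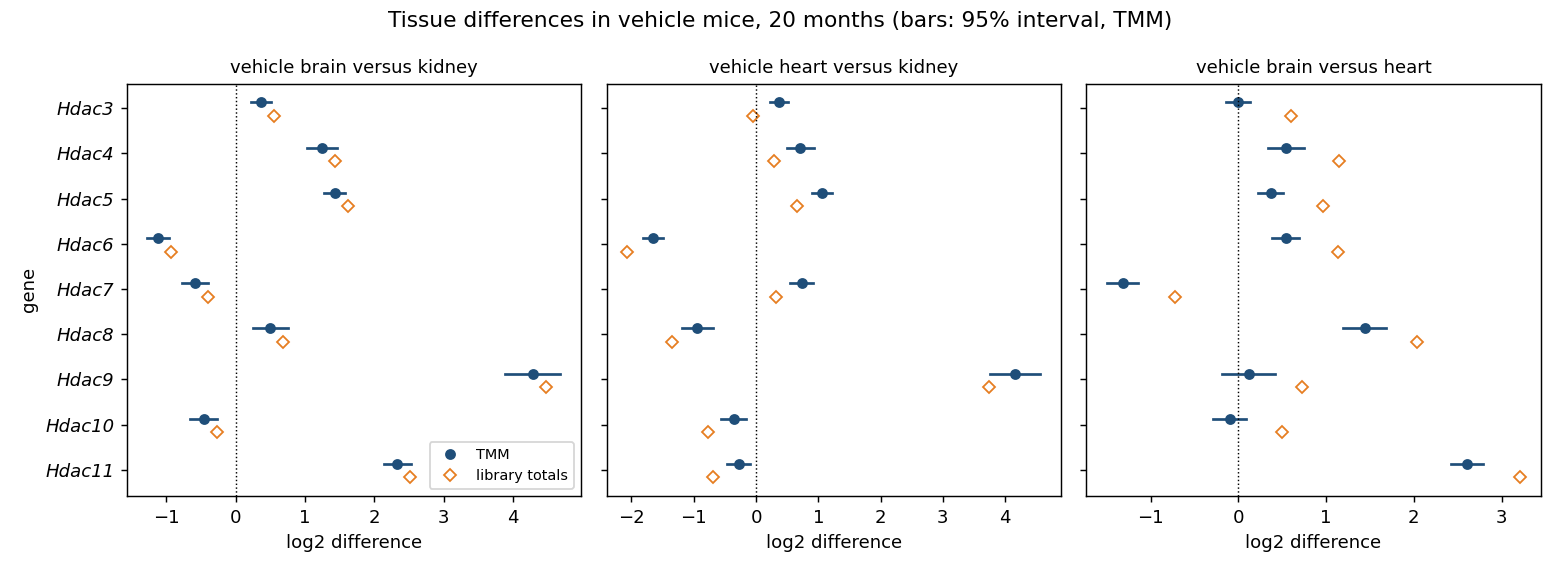
Log2 difference of each HDAC gene between vehicle tissues of mice of about 20 months. Filled circles with bars give the TMM-scaled difference and its 95% interval, and open diamonds the difference with library totals. The diamonds lie right of the circles in both comparisons of brain, and left of them between heart and kidney. Hdac9 stands more than 3.74 above 0 in both comparisons with kidney on either scale.

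Start regions of the genes at the ends of this range are shown because Hdac9, Hdac11 and Hdac6 carry the largest tissue differences. The table of RefSeq promoters held 11 start regions for 7 of the 9 genes, each of 300 bases, 250 before and 50 after an annotated start, on build GRCm38.p6. Capitals mark every CG dinucleotide, a C followed by a G, whose cytosine is the main site of methylation in mammalian DNA. Hdac11 (chr6:91156565-91156864, plus strand) held 22, which 23.1% of the 32851 promoters in the table reach, and Hdac6 (chrX:7947840-7948139, minus strand) held 20, which 26.5% reach. Of the 2 starts of Hdac9, the upstream start (chr12:34917046-34917345, minus strand) held 0, as in 5.43% of promoters, and the downstream start (chr12:34528840-34529139, minus strand) held 3, a number that 31.4% of promoters do not exceed. The median promoter held 7. Which start was in use was not measured, since the counts are summed per gene.
Hdac11: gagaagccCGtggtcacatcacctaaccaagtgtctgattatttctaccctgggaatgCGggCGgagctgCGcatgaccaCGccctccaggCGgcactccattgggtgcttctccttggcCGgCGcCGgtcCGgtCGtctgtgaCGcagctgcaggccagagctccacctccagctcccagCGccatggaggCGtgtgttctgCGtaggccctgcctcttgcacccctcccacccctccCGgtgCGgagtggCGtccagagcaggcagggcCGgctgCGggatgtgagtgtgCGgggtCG
Hdac6: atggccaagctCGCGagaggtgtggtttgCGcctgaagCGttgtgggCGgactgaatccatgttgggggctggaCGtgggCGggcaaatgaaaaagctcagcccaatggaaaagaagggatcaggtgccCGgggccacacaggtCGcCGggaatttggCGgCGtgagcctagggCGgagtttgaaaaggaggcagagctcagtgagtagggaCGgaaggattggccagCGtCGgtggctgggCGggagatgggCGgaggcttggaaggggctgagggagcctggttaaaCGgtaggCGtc
Hdac9, upstream start: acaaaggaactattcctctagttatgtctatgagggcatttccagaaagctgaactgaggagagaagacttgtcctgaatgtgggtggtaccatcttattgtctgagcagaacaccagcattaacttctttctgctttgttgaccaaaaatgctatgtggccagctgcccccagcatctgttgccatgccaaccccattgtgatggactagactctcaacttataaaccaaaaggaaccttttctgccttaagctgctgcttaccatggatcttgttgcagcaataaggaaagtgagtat
Hdac9, downstream start: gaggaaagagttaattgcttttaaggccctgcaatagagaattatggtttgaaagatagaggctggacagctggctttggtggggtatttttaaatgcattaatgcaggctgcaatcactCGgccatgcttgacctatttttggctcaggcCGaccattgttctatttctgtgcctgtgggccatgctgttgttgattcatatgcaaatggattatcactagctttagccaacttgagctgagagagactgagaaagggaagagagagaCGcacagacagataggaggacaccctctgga

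The motif GGGCGG, the core of an Sp1 box, was searched on both strands and occurred in 5 of the 11 start regions, namely those of Hdac4, Hdac5, Hdac6 and Hdac11 and 1 of 4 of Hdac7, against 35.7% of all promoters. TATAAA, searched the same way, occurred in 2 of 11, namely the upstream start of Hdac9 and the start of Hdac8, against 13.6% of all promoters. These are matches of letters and not measured binding sites.

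As a description of the tissue pattern, the group means of log2 CPM over the 10 groups were compared between each HDAC gene and 16521 genes with at least 1 CPM in some group. The 10 points share their tissue, since 6 of them are brain groups, and a correlation over them mostly reflects the contrast of brain, heart and kidney. Hdac11 was nearest to Mbp, a protein of the myelin sheath (Pearson r = 0.9996), and to Chst1 (r = 0.9996). Hdac5 was nearest to Ryr3, a calcium release channel, and Pdp1 (r = 0.997 and 0.996), Hdac9 to Wnk2, a kinase, and Arhgap20 (r = 0.998 and 0.997), and Hdac4 to P2ry13 and Man2a2 (r = 0.994 each). Hdac6 was nearest to Med28, a Mediator subunit, and 4933404M02Rik (r = 0.994 each), Hdac7 to Crip1 and Tnfrsf23 (r = 0.995 each), and Hdac8 was near to 1700007K13Rik (r = 0.991). Hdac3 and Hdac10 had the loosest neighbours, BC018507 and Trpc4ap for the former (r = 0.963 each) and Pold4 and 4930473A06Rik for the latter (r = 0.960 and 0.956).

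Cmpd60 was then compared with vehicle in each tissue. None of the 9 genes passed an adjusted p of 0.05 by edgeR in the aged kidney, brain or heart, and none did so by limma-voom or DESeq2. Over all genes, 0.300% of 20698 passed in kidney, 0.0205% of 24438 in brain and 1.18% of 19452 in heart. At an unadjusted p below 0.05, edgeR counted 0 of 9 in kidney (11.3% of all genes), 2 of 9 in brain (13.8%) and 0 of 9 in heart (13.5%), limma-voom 2, 2 and 0, and DESeq2 0, 2 and 0. The median log2 fold change of the 9 genes was 0.10 in kidney, 0.0064 in brain and -0.09 in heart, beside -0.00012, 0.0072 and -0.0014 for all genes tested. These tests do not show equality, and the 95% intervals give what the data leave possible. In the aged brain, the intervals of all 9 genes lay between a fall of 12.9% and a rise of 33.9%. In the heart, they lay between -34.1%, for Hdac8, and a rise of 25.2%, and in the kidney between a fall of 63.1%, for the scarce Hdac9, and a rise of 47.1%, for Hdac8.

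**Figure D3:**
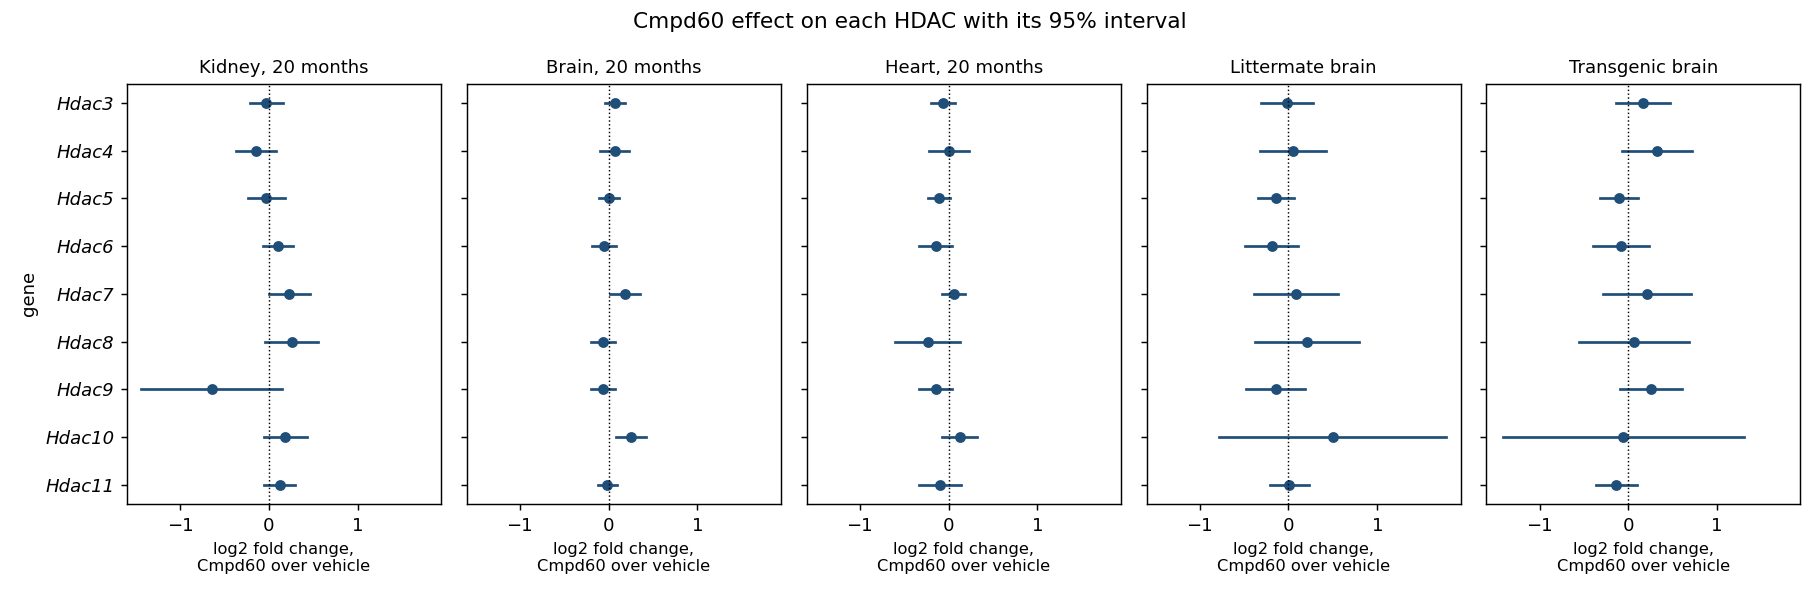
Log2 fold change of each HDAC gene between Cmpd60 and vehicle mice in the 5 tissue and genotype settings, with points as estimates and bars as 95% intervals from edgeR. In the aged brain, the intervals of Hdac7 and Hdac10 lie above 0, while those of Hdac10 in the dementia model and of Hdac9 in kidney are the widest.

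The 2 genes with an unadjusted p below 0.05 in the aged brain were Hdac10 and Hdac7, both higher with Cmpd60. Hdac10, the polyamine deacetylase, ranged from 9.59 over a median of 11.1 to 12.2 CPM in the 6 vehicle brains, and from 11.6 over a median of 13.3 to 14.2 CPM in the 6 Cmpd60 brains. Of the treated brains, 4 lay above every vehicle brain and the other 2 within the vehicle range. The log2 fold change was 0.25 ± 0.08 (SE, edgeR p = 0.00658, adjusted p = 0.202), a 1.19-fold difference with an interval of 1.06 to 1.34, and the two-sided exact permutation test gave p = 0.0173 where the smallest possible is 0.00216. The adjusted p stayed between 0.0876 and 0.258 over the 7 alternative settings.

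Hdac7 ranged from 27.001 over a median of 27.4 to 37.6 CPM in vehicle brains and from 31.01 over a median of 32.6 to 38.4 CPM in Cmpd60 brains. All 6 treated brains lay above 5 of the 6 vehicle brains, which ended at 29.2 CPM, while vehicle replicate 29 stood at 37.6 CPM, above all but 1 of the treated brains. With that library, the log2 fold change was 0.19 ± 0.08 (SE, edgeR p = 0.0317, adjusted p = 0.319, exact permutation p = 0.0584). Without it, the value was 0.27 (edgeR adjusted p = 0.0420), so that the call of Hdac7 turned on 1 vehicle library. With all 12 libraries, 0.0205% of all genes passed. The share without replicate 29 was not counted, so whether that call is particular to Hdac7 cannot be told. The adjusted p lay between 0.246 and 0.400 over the 7 alternatives that kept all 12 libraries. Leaving out replicate 29 moved Hdac10 to 0.27 (adjusted p = 0.122).

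Other transcripts moved with these libraries. Of the 6 endothelial markers, 5 were higher in Cmpd60 brains, and the median over all 6 was 0.21 on the log2 scale. The sum of the 6 was 194.8 to 227.3 CPM in vehicle and 221.4 to 316.4 CPM in Cmpd60 brains, with 0 of 6 past the adjusted threshold. The 5 cerebellar neuron markers were all lower, with a median of -0.42 and sums of 371.4 to 628.8 CPM in vehicle and 202.5 to 472.6 CPM in Cmpd60 brains, and the 5 cortical and hippocampal markers were all higher, with a median of 0.24. None of these 10 passed the adjusted threshold. Their part in the differences of Hdac7 and Hdac10 was not tested.

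The other 7 genes of the aged brain differed by less, with log2 fold changes from -0.06 to 0.07. Hdac11, the most expressed per kilobase, ranged from 215.3 over a median of 243.3 to 251.2 CPM in vehicle and from 216.7 over 235.3 to 255.9 CPM in Cmpd60 brains, and its interval allowed a fall of at most 8.0% or a rise of at most 6.58%. Hdac5 gave 0.0064 ± 0.05 (SE), with an interval from -7.18% to 8.69%. For each of the 7 genes, a log2 change of the size estimated for Hdac10 lies outside the 95% interval. The interval reaches furthest up for Hdac4, to a rise of 17.6%, and furthest down for Hdac8, to a fall of 12.9%. Of the class I genes, Hdac3 gave 0.07 ± 0.05, with 54.2 to 65.95 CPM in vehicle and 57.4 to 66.1 CPM in Cmpd60 brains, and Hdac8 gave -0.06 ± 0.06, with 14.9 to 16.98 CPM and 13.6 to 16.1 CPM. Hdac4, Hdac6 and Hdac9 gave 0.07 ± 0.08, -0.05 ± 0.06 and -0.06 ± 0.06. The ranges of vehicle and treated brains overlapped for all 9 genes.

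In the kidney, the smallest unadjusted p of the family was that of Hdac7. Its 5 vehicle kidneys stood at 31.2, 34.7, 40.2, 42.9 and 45.8 CPM, and the 6 Cmpd60 kidneys ranged from 41.0 over a median of 44.8 to 55.2 CPM. Of the treated kidneys, 3 lay above every vehicle kidney. The log2 fold change was 0.23 ± 0.11 (SE, edgeR p = 0.0521, adjusted p = 0.444, exact permutation p = 0.0693). Hdac8 gave 0.26 ± 0.14 (exact permutation p = 0.108) and Hdac10 0.18 ± 0.11 (exact permutation p = 0.121), with 3 and 4 of 6 treated kidneys above every vehicle kidney.

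Hdac9 had the largest difference in the kidney, at its lowest level of any tissue. The vehicle kidneys stood at 1.74, 1.96, 2.11, 2.27 and 2.42 CPM, and the Cmpd60 kidneys ranged from 0.302 over a median of 1.46 to 2.01 CPM. Of the treated kidneys, 3 lay below every vehicle kidney and the other 3 within the vehicle range. The log2 fold change was -0.64 ± 0.37 (SE, edgeR p = 0.104, adjusted p = 0.536, exact permutation p = 0.0649), and leaving out single libraries moved it between -0.80 and -0.43. Hdac3, Hdac5, Hdac6, Hdac4 and Hdac11 gave -0.03, -0.03, 0.10, -0.15 and 0.13, with no unadjusted p under 0.145. In both groups, 1 library was low for Hdac5, vehicle replicate 48 at 54.0 CPM and Cmpd60 replicate 55 at 54.2 CPM, while the others lay between 67.7 and 74.1 CPM. The tubule markers, 4 of 7 lower with Cmpd60, summed to as little as 7797 CPM in treated kidneys, against at least 13398 CPM in vehicle. Fibroblast markers, 3 of 5 higher, summed to 379.0 to 661.2 CPM in vehicle and 382.4 to 964.2 CPM in Cmpd60 kidneys. Lymphocyte markers, 6 of 7 lower, gave 34.7 to 71.5 and 25.5 to 79.0 CPM. None of these markers passed the adjusted threshold, and their part in the HDAC values was not tested.

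In the heart, Hdac5 had the smallest unadjusted p. Its 6 vehicle hearts ranged from 102.0 over a median of 105.9 to 113.9 CPM, and the 5 Cmpd60 hearts stood at 92.9, 94.7, 100.7, 104.6 and 104.6 CPM, with 3 of them below every vehicle heart. The log2 fold change was -0.11 ± 0.06 (SE, edgeR p = 0.0844, adjusted p = 0.459), and the exact permutation test of this gene alone gave p = 0.0325. Hdac9, Hdac6 and Hdac8 gave -0.15 ± 0.09, -0.14 ± 0.09 and -0.23 ± 0.17, and Hdac10 gave 0.12 ± 0.09 with 4 of 5 treated hearts above every vehicle heart (exact permutation p = 0.0606). Hdac7, at its highest level of the 3 tissues, gave 0.06 ± 0.06, with 46.6 to 50.3 CPM in vehicle and 46.3 to 55.8 CPM in Cmpd60 hearts. Hdac3, Hdac4 and Hdac11 gave -0.06, 0.0045 and -0.09. The 6 endothelial markers were all higher in the treated hearts, by a median of 0.17 on the log2 scale, and summed to 930.6 to 1049.5 CPM in vehicle and 974.0 to 1298 CPM in Cmpd60 hearts. The 7 lymphocyte markers were all lower, by a median of -0.55, with sums of 15.2 to 26.8 CPM in vehicle and 13.7 to 19.6 CPM in Cmpd60 hearts, and the 4 atrial markers were all lower, by a median of -0.47, with sums of 2722 to 6569.6 CPM in vehicle and 2101 to 5694 CPM in Cmpd60 hearts. No gene of these 3 lists passed the adjusted threshold, and their part in the HDAC values was not tested.

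Whether the compound's effect differed between tissues was tested by contrasts of the 34-library fit, in which each library entered as a separate mouse. None of the 9 genes passed an adjusted p of 0.05 for kidney minus heart (0.350% of 27105 genes), brain minus heart (0.0517%) or kidney minus brain (0.0885%), by edgeR, limma-voom or DESeq2. At an unadjusted p below 0.05, edgeR counted 2, 0 and 1 genes, limma-voom 2, 0 and 2, and DESeq2 3, 0 and 1. The 3 counted by edgeR were Hdac8, whose effect was 0.48 ± 0.18 higher on the log2 scale in kidney than in heart (adjusted p = 0.267), Hdac6, with 0.23 ± 0.11 (adjusted p = 0.397), and Hdac9, whose effect in kidney minus that in brain was -0.59 ± 0.26 (adjusted p = 0.447). By unadjusted p, Hdac8 and Hdac6 ranked 1205 and 2790 of 27105 genes for kidney minus heart. Hdac9 ranked 1759 for kidney minus brain. At least that many genes thus lay below 0.05 in the contrast named. The exact share was not counted in any of the 3 contrasts, so the counts of HDAC genes cannot be set against those of all genes. The other 7 genes of kidney minus heart ran from -0.49 for Hdac9 over -0.16 for Hdac4, 0.02 for Hdac3, 0.05 for Hdac10, 0.07 for Hdac5 and 0.16 for Hdac7 to 0.21 for Hdac11. For kidney minus brain, the other 8 were -0.25 for Hdac4, -0.12 for Hdac3, -0.09 for Hdac10, -0.06 for Hdac5, 0.02 for Hdac7, 0.11 for Hdac11, 0.13 for Hdac6 and 0.30 for Hdac8. For brain minus heart, all 9 were above 0, with 0.09 for Hdac4 and Hdac11, 0.10 for Hdac9, 0.11 for Hdac6, 0.13 for Hdac5, 0.14 for Hdac3 and Hdac10, 0.15 for Hdac7 and 0.18 for Hdac8. Their smallest unadjusted p was 0.138 (edgeR, Hdac3). All 9 rest on the same libraries, and the share of all genes above 0 in this contrast was not counted. The kidney contrasts also rest on the titles of the kidney libraries.

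In the dementia model, Cmpd60 was compared with vehicle within each genotype. No HDAC gene passed an adjusted p of 0.05 in the transgenic brains or in the littermate brains by edgeR, limma-voom or DESeq2, and by edgeR neither did any of the 23194 genes tested (0% in each), while DESeq2 called 22 and 4. At an unadjusted p below 0.05, edgeR counted 0 of 9 in transgenic mice, where 9.46% of all genes were counted, and 0 of 9 in littermates, where 3.67% were. Limma-voom counted 1 and 0, and DESeq2 0 and 0. The intervals were wide. For Hdac11 and Hdac5, the 2 most expressed per kilobase, they lay between a fall of 22.6% and a rise of 17.3%, whereas for Hdac10 they ran from a fall of 62.4% to a rise of 146.1% in transgenic mice and from a fall of 41.9% to a rise of 243% in littermates.

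The spread of these libraries was widest for Hdac10. The littermate vehicle brains stood at 0, 6.53, 7.49, 7.95 and 8.75 CPM, where the 0 of replicate s155 allows up to 0.119 CPM, and the littermate Cmpd60 brains at 6.27, 7.80, 7.94, 8.02 and 13.3 CPM. The lowest vehicle and the highest treated value both came from libraries with few genes detected, replicates s155 and 152. The log2 fold change was 0.50 ± 0.62 (SE) with all libraries, 0.18 without replicate s155 and -0.03 without the 5 libraries. In transgenic mice, vehicle brains stood at 4.48, 6.56, 6.77, 7.93 and 10.5 CPM and Cmpd60 brains at 4.33, 6.60, 8.41 and 8.53 CPM, and the value went from -0.06 ± 0.66 to 0.40 (edgeR adjusted p = 0.531) without the 5 libraries. Hdac8 showed the same in littermates, where replicate 152 stood at 36.3 CPM and the other 4 treated brains between 12.4 and 13.5 CPM. Its log2 fold change of 0.21 ± 0.28 became -0.23 without that library and -0.18 without all 5.

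The class IIa genes of the transgenic brains gave 0.32 ± 0.19 for Hdac4, -0.11 ± 0.11 for Hdac5, 0.21 ± 0.24 for Hdac7 and 0.26 ± 0.17 for Hdac9. Hdac4 stood at 25.2, 48.4, 49.6, 61.6 and 65.9 CPM in vehicle and 56.8, 57.1, 65.4 and 71.4 CPM in Cmpd60 brains, and the vehicle value of 25.2 was that of replicate s140. Without the 5 libraries, Hdac4 gave 0.12, Hdac5 -0.04, Hdac7 0.25 and Hdac9 0.08. The remaining transgenic values were 0.16 for Hdac3, -0.09 for Hdac6, 0.07 for Hdac8 and -0.14 for Hdac11, and without the 5 libraries 0.14, -0.02, -0.0098 and 0.03, so that Hdac8 and Hdac11 turned. In littermates, Hdac6 gave -0.19 ± 0.15, with 3 of 5 treated brains below every vehicle brain, 32.7, 37.8, 38.7, 40.3 and 41.2 CPM against 39.0, 39.5, 43.4, 46.2 and 49.3 CPM (exact permutation p = 0.0714). Without the 5 libraries the value was -0.20 (edgeR adjusted p = 0.999). The other littermate values were -0.02 for Hdac3, 0.05 for Hdac4, -0.14 for Hdac5, 0.08 for Hdac7, -0.14 for Hdac9 and 0.01 for Hdac11, and without the 5 libraries 0.01, 0.10, -0.05, 0.11, 0.05 and 0.02, so that Hdac3 and Hdac9 turned.

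Genotypes were compared within each treatment. Between vehicle transgenic and littermate brains, 0 of 9 HDAC genes passed the adjusted threshold by edgeR, limma-voom or DESeq2, against 0.00862% of all genes by edgeR. At an unadjusted p below 0.05, edgeR counted 1 of 9 (8.67% of all genes), limma-voom 2 and DESeq2 1. The 1 gene was Hdac3, the NCoR and SMRT deacetylase. It stood at 39.4, 48.7, 52.0, 56.7 and 57.3 CPM in transgenic and 49.0, 60.0, 66.6, 68.8 and 83.3 CPM in littermate brains. The log2 difference was -0.37 ± 0.14 (SE, edgeR p = 0.0150, adjusted p = 0.509, exact permutation p = 0.0556). The highest littermate value and the lowest transgenic value were those of replicates s155 and s140, and without the 5 libraries the difference was -0.15 (edgeR adjusted p = 0.643). In all, 7 of the 9 genes were lower in transgenic mice, with a median of -0.17 beside -0.01 for all genes tested. The other values were -0.19 for Hdac4, -0.02 for Hdac5, -0.16 for Hdac6, -0.31 for Hdac7, -0.24 for Hdac8, -0.17 for Hdac9, 0.24 for Hdac10 and 0.08 for Hdac11. Without the 5 libraries 7 of 9 were lower too, but not the same 7. The median was -0.10, Hdac4 and Hdac5 turned to 0.04 and 0.03, and Hdac10 and Hdac11 turned to -0.38 and -0.10. Hdac6, Hdac7, Hdac8 and Hdac9 gave -0.07, -0.18, -0.10 and -0.01.

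Between Cmpd60 transgenic and littermate brains, 0 of 9 passed the adjusted threshold (0% of all genes by edgeR), and 0 of 9 had an unadjusted p below 0.05 by edgeR, limma-voom or DESeq2, against 1.34% of all genes by edgeR. Log2 differences were -0.39 for Hdac8, -0.32 for Hdac10, -0.19 for Hdac3, -0.18 for Hdac7, -0.07 for Hdac11, -0.06 for Hdac6, 0.0086 for Hdac5, 0.09 for Hdac4 and 0.23 for Hdac9. Without the 5 libraries they lay between -0.08 and 0.11, with Hdac8 at 0.07, Hdac10 at 0.06, Hdac6 at 0.11 and Hdac9 at 0.02, so that the first 3 of these turned. The interaction of genotype and compound gave 0 of 9 past the adjusted threshold by edgeR, limma-voom or DESeq2 (0% of all genes by edgeR) and 0 of 9 at an unadjusted p below 0.05 by each tool (5.09% of all genes by edgeR). The smallest p was that of Hdac9, at 0.40 ± 0.23 (edgeR adjusted p = 1), which was 0.03 without the 5 libraries. The other values were 0.18 for Hdac3, 0.27 for Hdac4, 0.03 for Hdac5, 0.10 for Hdac6, 0.12 for Hdac7, -0.14 for Hdac8, -0.55 for Hdac10 and -0.15 for Hdac11. Without the 5 libraries these 8 lay between 0.0086 and 0.43, and the 3 negative values turned, with Hdac10 at 0.43, Hdac8 at 0.17 and Hdac11 at 0.01.

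**Figure D4:**
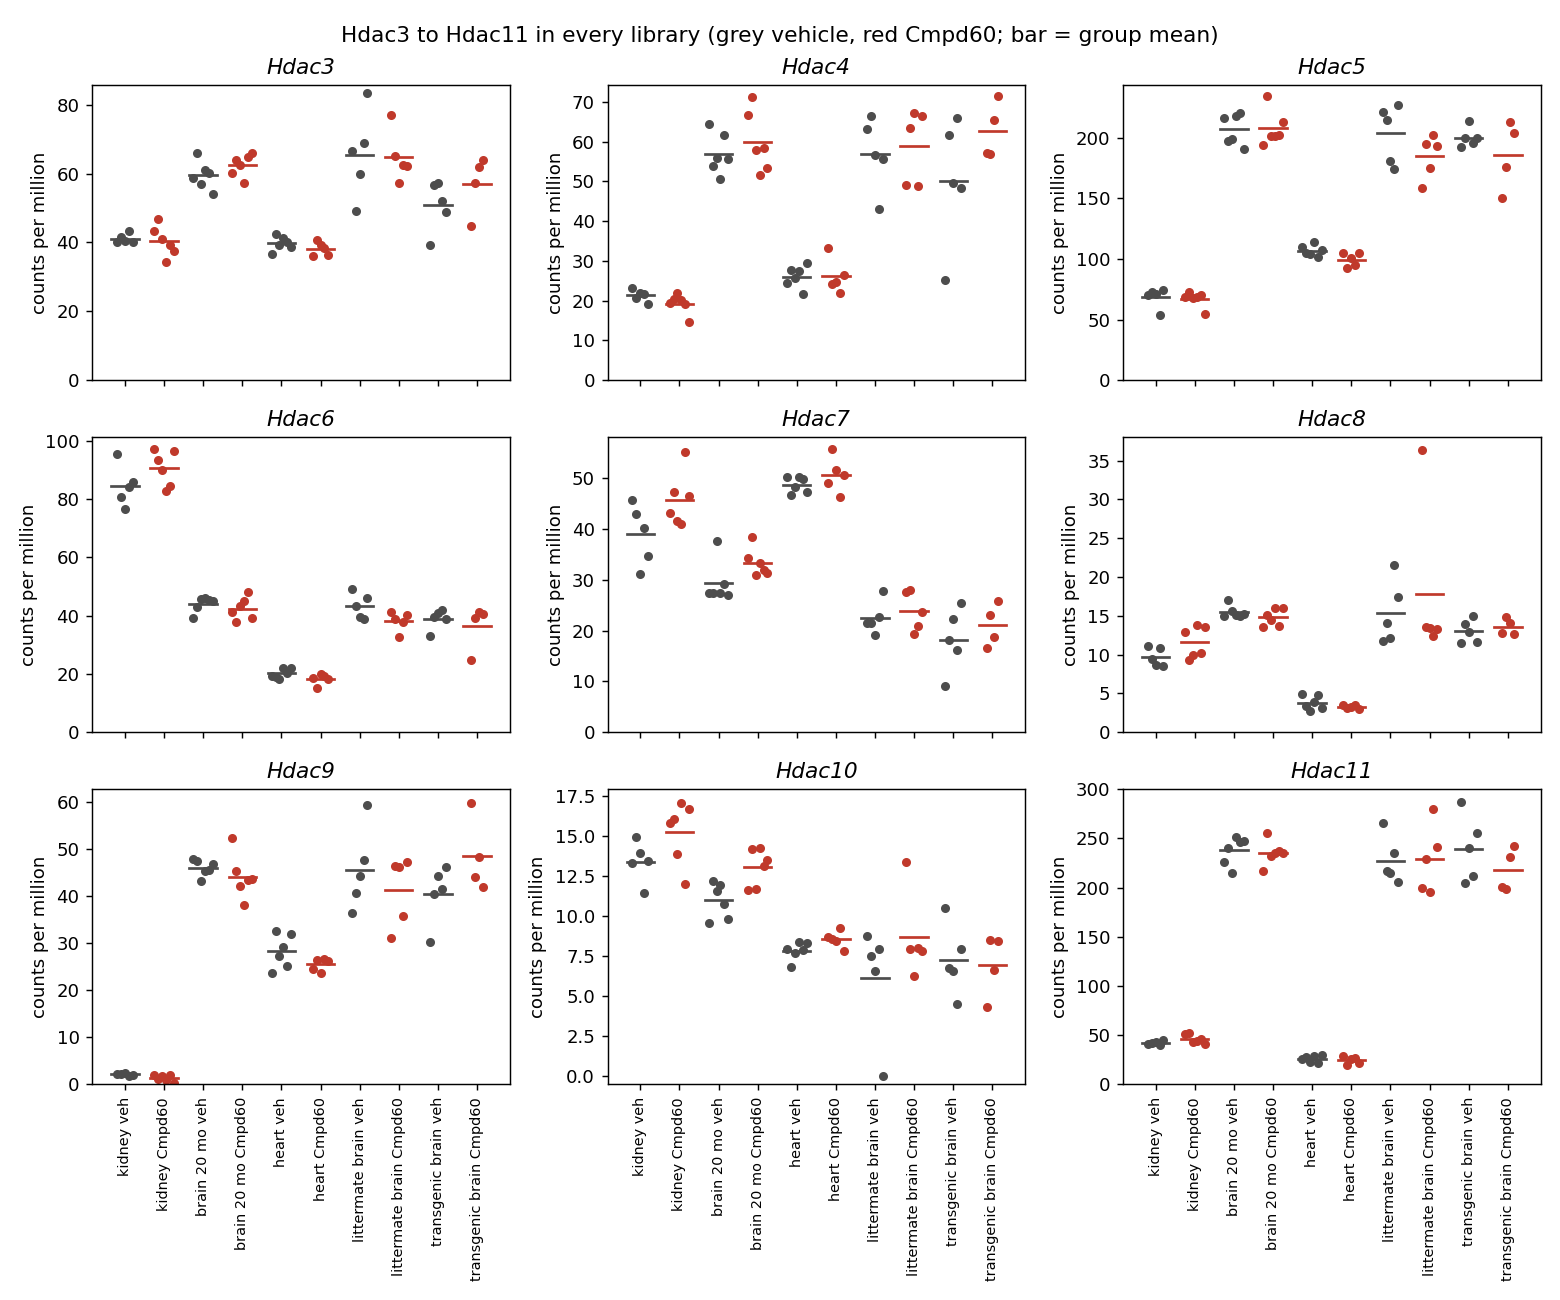
CPM of each HDAC gene in every library of the 10 groups, with 1 panel per gene, vehicle in grey, Cmpd60 in red and group means as bars. CPM are TMM-scaled within kidney, within aged brain, within heart and within the dementia model, so tissues are compared in the text on a joint scale. The brain panels of Hdac11 stand far above its other tissues, Hdac9 is near 0 in kidney, and treated and vehicle points overlap in every pair of groups.

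The 5 Cmpd60 comparisons can be set side by side for each gene, although tissues of the aged mice shared animals. No single value passed the adjusted threshold, and only Hdac7 and Hdac10 in the aged brain had 95% intervals that excluded 0. Hdac7 was higher with Cmpd60 in 5 of 5, from 0.06 in heart to 0.23 in kidney. Hdac10 was higher in 4 of 5, Hdac4 in 4 of 5, and Hdac5, Hdac6 and Hdac9 were lower in 4 of 5. Hdac3, Hdac8 and Hdac11 were split. Without the 5 libraries with few genes, Hdac7 was higher in 5 of 5, Hdac9 was lower in 3 of 5 and Hdac8 in 4 of 5, and Hdac10 was higher in transgenic mice and lower in littermates, the reverse of its signs with all libraries. None of these signs was tested.

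Partners, kinases and substrates of the HDACs were counted from lists. The 5 genes of the NCoR and SMRT complex around HDAC3 had 0 past the adjusted threshold in each of the 5 Cmpd60 comparisons. Higher with Cmpd60 were 5 of 5 in kidney (median log2 fold change 0.13), 4 of 5 in aged brain (0.07) and 3 of 5 in heart (0.03). In transgenic and littermate brains, 4 of 5 (0.07) and 3 of 5 (0.12) were higher. Over all genes tested, 10345 of 20698 were higher in kidney, 12654 of 24438 in aged brain and 9657 of 19452 in heart. In transgenic and littermate brains, 12477 and 12258 of 23194 were. Of the 21 class IIa partners and kinases, 1 passed, in heart, where 1.18% of all genes passed. It was Sik1, a salt-inducible kinase that phosphorylates class IIa HDACs, with a log2 fold change of 0.51 ± 0.11 (SE, edgeR adjusted p = 0.0420). Over the list, 9 of 21 were higher in heart, 10 in kidney and 16 in aged brain, with medians of -0.02, -0.05 and 0.06. None of the 10 HDAC6 substrates and partners, the 12 genes of cohesin and its regulators, the 10 measured of 11 genes of polyamine metabolism and the 10 lysine acetyltransferases passed in any of the 5 comparisons. The acetyltransferases, which add the acetyl groups that HDACs remove, were lower in 8 of 10 in kidney, 9 of 10 in aged brain and 8 of 10 in heart, with medians of -0.05, -0.07 and -0.06, where 50.02%, 48.2% and 50.4% of all genes were lower. In transgenic and littermate brains, 6 and 5 of the 10 were lower, with medians of -0.02 and -0.01.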

How the data were processed

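RNA was isolated with oligo-dT beads and sequenced as strand-specific libraries. The authors deposited 1 table of raw read counts per library over 54232 Ensembl genes, made per the submitters' processing notes with Trimmomatic 0.32, HISAT2 2.1.0, HTSeq 0.11.0 and FastQC. The genome build behind the counts is not given in the sources used here, so no gene coordinates are printed beyond RefSeq start regions (GRCm38.p6, 7 of 9 genes matched). The 5 summary lines of each file, which held 15.4% to 22.1% of its counts, were left out.

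Genes were kept if 3 or more libraries of the fit had over 2 counts, and fitted with edgeR 4.0.16 (R 4.3.3, TMM, quasi-likelihood test, Benjamini-Hochberg adjustment over all genes tested) in 5 fits, for kidney, brain, heart, the 4 groups of the dementia model and the 34 aged libraries together. Intervals are at 95%. Exact permutation tests were two-sided, on log2(CPM + 0.1). Alternatives were limma-voom (limma 3.58.1), DESeq2 1.42.0, its size factors in edgeR, other filters, library totals, thinned counts, fits of only the groups compared, the library with conflicting labels in either group, and leaving out each library. The edgeR steps were tested on simulated data. Samples were grouped by title and source name. CPM per kb used exon lengths of the GENCODE M1 annotation, which is not the one used for counting, so the order of close genes may shift.

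All 9 HDAC genes are named in every comparison, list genes only with an adjusted p below 0.05, and for like patterns the 2 genes of highest Pearson r, of which 1 is not reported here. The genes and lists were chosen with earlier results of these data known. Nothing says which tissues share animals, and p-values measure the spread between these samples. Floors of 3 counts cover counting error only.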

Additional observations from a re-analysis of the deposited data

Results flagged for a closer look

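In 8 of the 90 sets of libraries tested, each 1 gene in 1 group, a library lay far from the rest of its group, where chance alone gives about 1 in 20. In aged vehicle brains, replicate 29 stood at 37.6 CPM for Hdac7, with the next at 29.2 CPM, and replicate 28 at 16.98 CPM for Hdac8. In the kidney, vehicle replicate 48 (54.0 CPM) and Cmpd60 replicate 55 (54.2 CPM) were low for Hdac5. The other 4 were all libraries of the dementia model with few genes detected. Littermate vehicle replicate s155 had 0 CPM of Hdac10, littermate Cmpd60 replicate 152 had 13.3 CPM of Hdac10 and 36.3 CPM of Hdac8, and transgenic Cmpd60 replicate 141 had 24.9 CPM of Hdac6. The part of library quality in these values was not tested.

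Hdac6 stood at 53.0 CPM in the transgenic library with conflicting labels, which entered no comparison. That is above all 10 vehicle brains of the dementia model and above all 19 assigned brains, which ended at 49.3 CPM.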

How the results depend on the processing

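Across the 8 treatment and genotype comparisons, the 9 genes gave 675 values under other settings, of which 0 passed the adjusted threshold (smallest adjusted p = 0.0876, Hdac10 in aged brain by DESeq2), and 819 values with 1 library left out, of which 1 passed. That was Hdac7 in the aged brain without vehicle replicate 29, at 0.27 (adjusted p = 0.0420), so the count of called HDAC genes there ranged from 0 to 1. The share of all genes that passed without that library is not given here. With library totals, a setting chosen after seeing the data, Hdac3 between heart and kidney gave -0.046, and between brain and heart Hdac3 gave 0.60, Hdac9 0.72 and Hdac10 0.50. Hdac11 between heart and kidney lost its call without heart vehicle replicate 64 or 66. Leaving out the 5 libraries with few genes was also chosen after seeing the data. By limma-voom, Hdac10 gave 1.70 in littermates and 1.56 between vehicle genotypes, where littermate vehicle replicate s155 holds 0 counts. Of all 999 values under other settings, the tissue differences included, 28 changed sign without passing the threshold either way, and reached at most 0.43 in size, and of 1737 values with 1 library left out 60 did so, and reached at most 0.29. Over all genes, DESeq2 called 429 in kidney, 429 in brain and 746 in heart, where edgeR called 62, 5 and 229. No paired analysis was possible because the library numbers differ between all groups. Apart from that 0 of Hdac10, the fewest counts were those of Hdac9 in kidney, with 9 to 74 per library, and of Hdac8 in heart, with 66 to 138.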

Other observations

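In the library with conflicting labels, Hdac3 stood at 64.4 CPM, Hdac4 at 61.1, Hdac5 at 210.0, Hdac8 at 15.0 and Hdac11 at 262.4 CPM, all within the range of the 19 assigned brains of the dementia model. Hdac7 at 15.8, Hdac9 at 33.0 and Hdac10 at 3.33 CPM lay near the low end of that range, above 1, 2 and 1 of the 19 brains.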
